A study of Homo sapiens with 8 samples.

Results

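The olfactomedin-domain genes and the latrophilins were followed in IGR-N91 cells, an established human neuroblastoma line, cultured as aggregates in hanging drops. The set held 10 of the 60676 genes in the count table, found by matching Ensembl identifiers to the symbols OLFM1, OLFM2 and OLFM3 (olfactomedins), OLFML1, OLFML2A, OLFML2B and OLFML3 (olfactomedin-like genes) and ADGRL1, ADGRL2 and ADGRL3 (latrophilins). Aggregates were kept in control medium without tissue, in medium conditioned by sympathetic ganglia of chick embryos at embryonic day 8 (E8-cSGcm), by dorsal root ganglia of chick embryos of the same age (E8-cDRGcm), or by sympathetic ganglia of E15.5 mouse embryos (E15.5-mSGcm). The submitters' names of the control libraries carry E8, and no control is named for E15.5. The mouse medium was thus compared with the same control as the chick media. Each group had 2 libraries of total RNA, made after 20 h of exposure by the sample labels or 24 h by the design text. All groups shared this 1 line with no genetic change among them, nothing told whether the 2 libraries of a group came from separate cultures, and p-values therefore measured only the spread between these libraries, which may be technical. Library totals ran from 7930765 to 15060744 reads in genes, the smallest being those of E15.5-mSGcm, and at most 3 reads was taken as not detected. The 8 noradrenergic neuroblastoma markers fixed for the check were all detected, the glial gene SOX10 and the endothelial gene CDH5 had 0 reads in every library, the glial gene S100B had at most 1, and the leukocyte genes PTPRC and CD68 had at most 3.

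Olfactomedin-domain proteins share a domain that binds partners at the cell surface or in the matrix. OLFM1, OLFM2 and OLFM3 are secreted glycoproteins of the nervous system. OLFM1, also known as noelin or pancortin, acts in the production of neural crest cells in the chick and binds the Nogo receptor and AMPA receptor complexes. Latrophilins are adhesion G protein-coupled receptors that carry an olfactomedin domain outside the cell and bind teneurins, FLRT proteins and neurexins. The comparisons asked which of these genes of the tumour cell differed after contact with cues from each ganglion. In a bulk library, fewer cells expressing a gene and less RNA per cell cannot be told apart.

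Of the 10 genes, 9 passed the filter on low counts, and OLFML2A did not. A gene was called when the adjusted p-value over all 16680 genes tested was under 0.05 and the fold change was at least 1.5. In E8-cSGcm, 3 of the 9 tested members were called against control, where 8.59% of all tested genes were called. In E8-cDRGcm it was 4 of 9, against a background of 20.7%, and in E15.5-mSGcm 1 of 9, against 13.9%. OLFM2 rose and OLFM3 and OLFML2B fell in both chick media, OLFML3 fell in E8-cDRGcm, and OLFML2B rose in E15.5-mSGcm. The median log2 fold change of the tested members was -0.07 in E8-cSGcm, 0.05 in E8-cDRGcm and -0.06 in E15.5-mSGcm, beside medians over all tested genes of 0.01, 0.01 and -0.02. The 3 latrophilins were not called in any medium. On the adjusted p alone, 5 of 9 members passed in E8-cSGcm, beside 31.3% of all tested genes, 6 of 9 in E8-cDRGcm, beside 49.5%, and 4 of 9 in E15.5-mSGcm, beside 37.8%. The 3 comparisons share the control libraries, so the values of the members are given side by side for each.

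**Figure D1:**
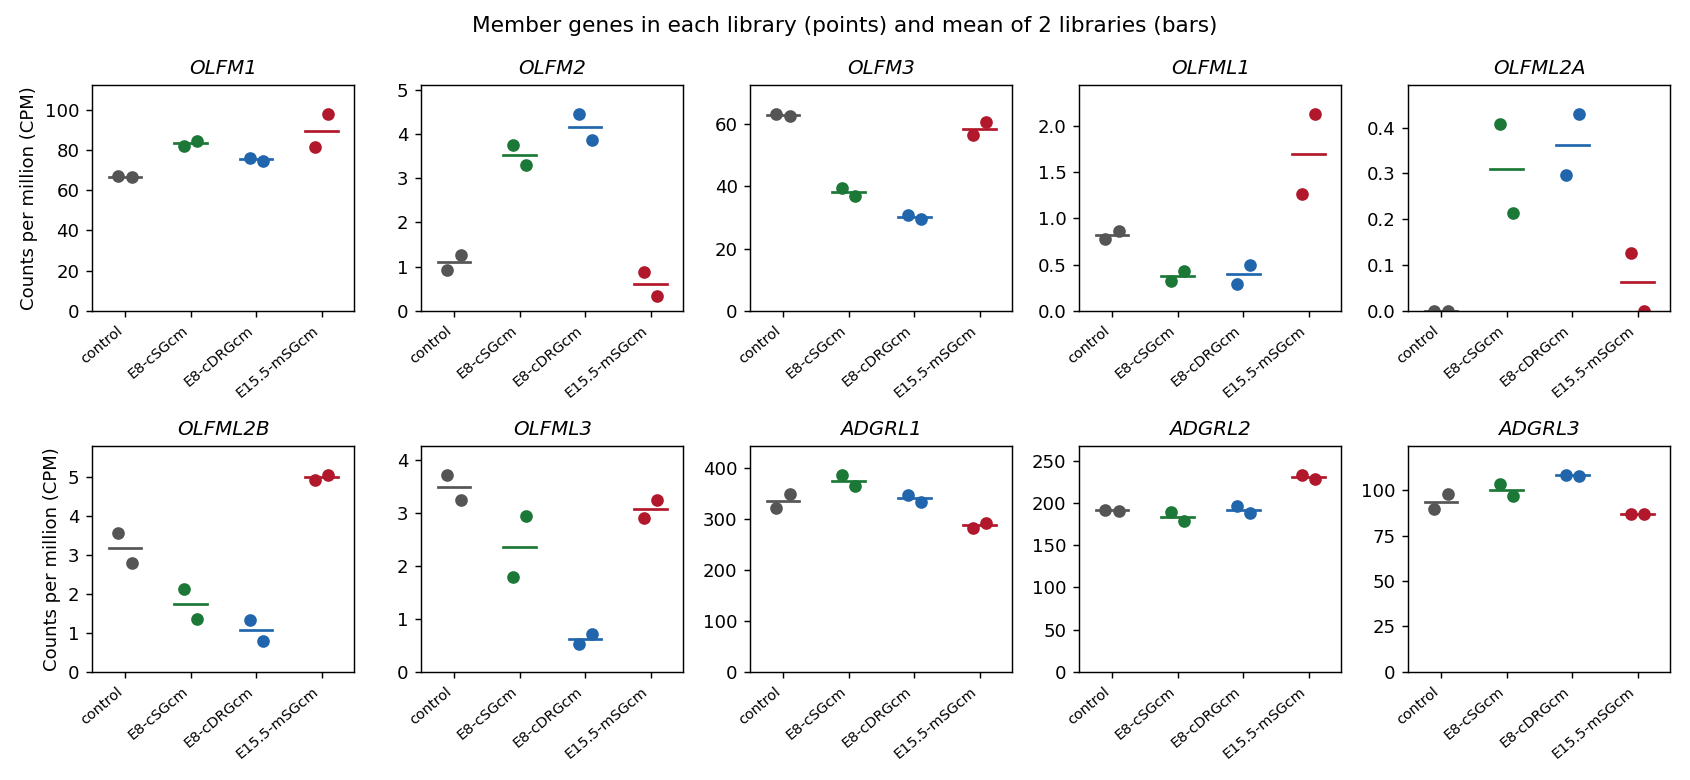
Level, as reads per 1000000 reads in genes (CPM), of the 10 member genes in each of the 8 libraries, with points for libraries and horizontal bars for the mean of the 2 libraries of a group. OLFM3 lies between 29.5 and 39.4 CPM in the chick media and between 56.5 and 63.0 CPM in control and E15.5-mSGcm. OLFM2 is higher in the chick media than in control and E15.5-mSGcm.

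OLFM3, also called optimedin, is a secreted glycoprotein of retina and brain. It lies at chr1:101802560-101996926 (RefSeq coordinates of GRCh38.p14 are used throughout). Its level was 63.0 and 62.4 CPM (reads per 1000000 reads in genes) in control, 39.4 and 36.8 CPM in E8-cSGcm, 30.8 and 29.5 CPM in E8-cDRGcm, and 56.5 and 60.4 CPM in E15.5-mSGcm. All 4 chick-medium libraries were below all 4 others, and none of the groups overlapped. OLFM3 fell by 0.73 on the log2 scale in E8-cSGcm (SE 0.07, adjusted p = 5.53e-10) and by 1.02 in E8-cDRGcm (SE 0.08, adjusted p = 5.13e-14). In E15.5-mSGcm the log2 fold change was -0.06 ± 0.07 (SE; adjusted p = 0.59). Tested directly, OLFM3 was higher in E15.5-mSGcm than in E8-cSGcm (log2 difference 0.67 ± 0.08, adjusted p = 5.27e-09) and than in E8-cDRGcm (0.96 ± 0.08, adjusted p = 1.12e-12). Between the chick media the log2 difference, E8-cDRGcm minus E8-cSGcm, was -0.29 ± 0.08, with an adjusted p of 0.00634, but stayed below the fold threshold. Every OLFM3 call held in each alternative fit.

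OLFM2 (chr19:9853718-9936515), a secreted paralogue known in smooth muscle and in AMPA receptor complexes, moved the other way at a lower level per exon length, with a mean in control of 0.445 CPM per kilobase of annotated exons (RPKM) beside 14.3 for OLFM3. Control libraries held 12 and 19 reads (0.93 and 1.26 CPM), E8-cSGcm libraries 46 and 46 (3.74 and 3.29 CPM), E8-cDRGcm libraries 60 and 54 (4.44 and 3.86 CPM), and E15.5-mSGcm libraries 7 and 3 (0.88 and 0.34 CPM). The chick-medium libraries were all above the rest, and the 2 libraries of E15.5-mSGcm were the lowest. OLFM2 rose 3.13-fold in E8-cSGcm (log2 fold change 1.64 ± 0.31, adjusted p = 6.77e-05) and 3.83-fold in E8-cDRGcm (1.94 ± 0.30, adjusted p = 1.03e-06). The value in E15.5-mSGcm against control, -0.85 ± 0.51, did not pass (adjusted p = 0.202). E15.5-mSGcm was 5.62-fold lower than E8-cSGcm (adjusted p = 3.85e-06) and 6.88-fold lower than E8-cDRGcm (adjusted p = 1.94e-07), while the chick media differed by 0.29 ± 0.24 (adjusted p = 0.394). The OLFM2 calls were kept in every fit that tested the gene. It was not tested when 10 reads were required in every library.

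OLFM1 (chr9:135075505-135121184) was the olfactomedin that varied least. It stood at 67.0 and 66.5 CPM in control, 82.2 and 84.3 CPM in E8-cSGcm, 76.0 and 74.8 CPM in E8-cDRGcm, and 81.5 and 97.7 CPM in E15.5-mSGcm. All 6 conditioned-medium libraries were above both control libraries. The log2 fold changes against control were 0.31 ± 0.07 (adjusted p = 0.000525), 0.22 ± 0.07 (adjusted p = 0.00827) and 0.47 ± 0.07 (adjusted p = 1.4e-06) in E8-cSGcm, E8-cDRGcm and E15.5-mSGcm. These passed the adjusted p and stayed below the fold threshold, as did the difference between E15.5-mSGcm and E8-cDRGcm (0.25 ± 0.07, adjusted p = 0.00242). The spread within E15.5-mSGcm was the widest of the 4 groups, and without its replicate 1 the value against control was 0.59 (adjusted p = 2.61e-07), which was called. Without its replicate 2 the value against control was 0.32 and the difference from E8-cDRGcm 0.10 (adjusted p = 0.347), which did not pass. OLFM4, a member of the family known from gut and neutrophils, had at most 2 reads in any library. The olfactomedin-domain genes MYOC and GLDN had 0.

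The balance among the olfactomedins differed with the medium. Per length of exon sequence, as RPKM, OLFM3 made up 55.9% and 55.5% of the OLFM1 to OLFM3 sum in the control libraries. OLFM1 made up 42.6% and 42.5%. In E8-cSGcm, OLFM3 fell to 37.5% and 35.7% and OLFM1 came to 56.1% and 58.6%, and in E8-cDRGcm OLFM3 stood at 33.0% and 32.7% and OLFM1 at 58.5% and 59.6%. In E15.5-mSGcm the shares were 48.5% and 46.1% for OLFM3 and 50.2% and 53.4% for OLFM1. OLFM2 contributed 5.69% to 8.5% in the chick media and 0.457% to 2% in control and E15.5-mSGcm. The shares depend on the gene lengths taken, since isoforms were not separated: over the longest transcript OLFM1 was above OLFM3 in control, at 24.0 and 19.8 RPKM, so which gene led there turns with the length.

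**Figure D2:**
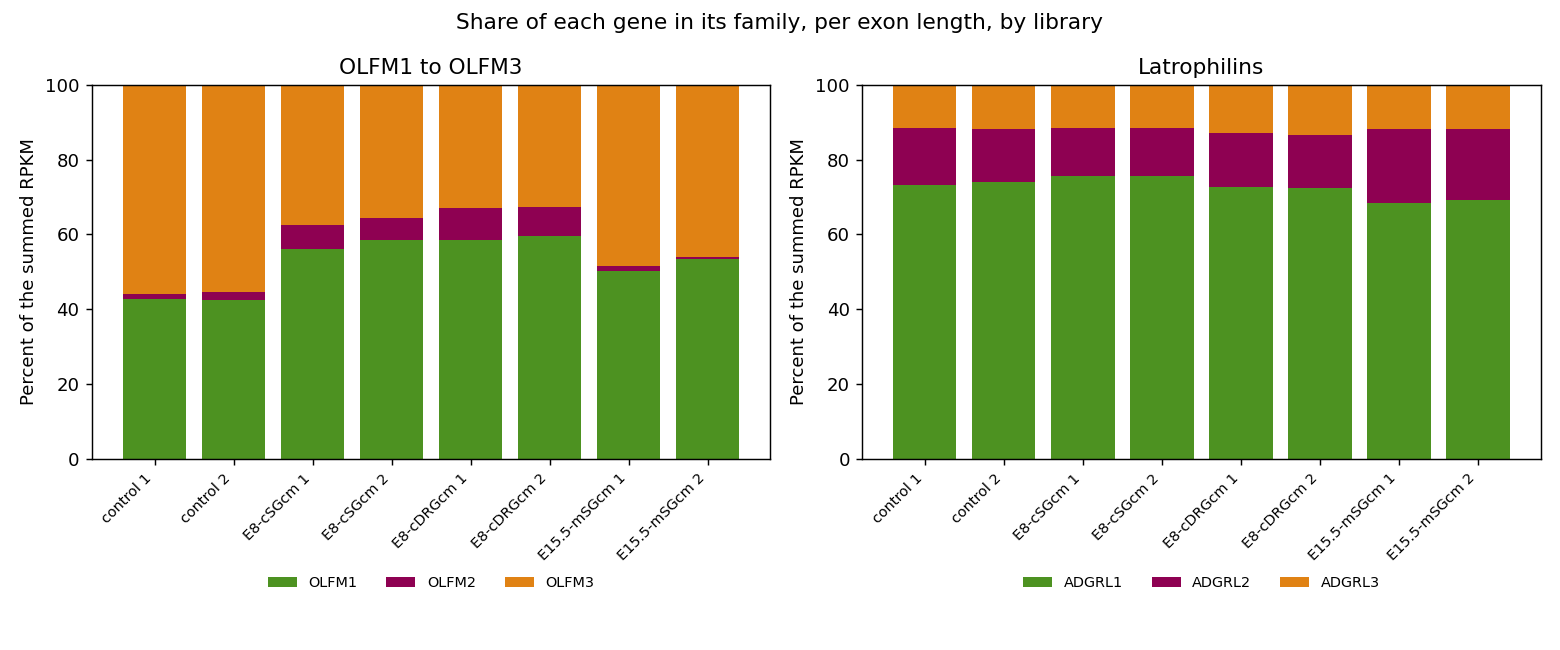
Stacked bars of the percent of summed RPKM taken by each gene in each library, for OLFM1 to OLFM3 (left) and for the 3 latrophilins (right). The OLFM3 share goes from 55.9% and 55.5% in control to 33.0% and 32.7% in E8-cDRGcm, and ADGRL1 takes 68.3% to 75.6% of the latrophilin sum in all libraries.

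The olfactomedin-like genes were read at low levels. OLFML2B (chr1:161983192-162023869), or photomedin-2, is a secreted protein that binds chondroitin sulphate. It had 46 and 42 reads in control (3.56 and 2.79 CPM), 26 and 19 in E8-cSGcm (2.12 and 1.36 CPM), 18 and 11 in E8-cDRGcm (1.33 and 0.79 CPM), and 39 and 45 in E15.5-mSGcm (4.92 and 5.04 CPM). The groups did not overlap, with E15.5-mSGcm highest and the chick media lowest, though the nearest libraries of the chick media stood at 1.36 and 1.33 CPM. OLFML2B fell by 0.88 on the log2 scale in E8-cSGcm (SE 0.29, adjusted p = 0.0194) and by 1.53 in E8-cDRGcm (SE 0.32, adjusted p = 0.00014), and rose by 0.70 in E15.5-mSGcm (SE 0.26, adjusted p = 0.0322). The E8-cDRGcm call held in every fit. The E8-cSGcm call was lost without control replicate 1 (adjusted p = 0.162), without E8-cSGcm replicate 2 (0.262), and with DESeq2 (0.148), and the E15.5-mSGcm call without control replicate 2 (adjusted p = 0.225), without E15.5-mSGcm replicate 1 (0.103) or 2 (0.157), and with DESeq2 (0.244). The direct differences between mouse and chick media were larger, at 1.58 ± 0.30 between E15.5-mSGcm and E8-cSGcm (adjusted p = 2.5e-05) and 2.23 ± 0.32 between E15.5-mSGcm and E8-cDRGcm (adjusted p = 2.38e-07). Between the chick media the log2 difference, E8-cDRGcm minus E8-cSGcm, was -0.65 ± 0.37 and did not pass (adjusted p = 0.193).

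OLFML3 (chr1:113979474-113982253), a secreted scaffold known to bind BMP1 and chordin, had 48 and 49 reads in control (3.71 and 3.25 CPM) and 7 and 10 in E8-cDRGcm (0.52 and 0.71 CPM). In E8-cSGcm it had 22 and 41 reads (1.79 and 2.93 CPM), and in E15.5-mSGcm 23 and 29 (2.90 and 3.24 CPM). The low level was seen in E8-cDRGcm, whose libraries lay below all 6 others, while those of E8-cSGcm and E15.5-mSGcm overlapped. OLFML3 was 5.39-fold lower in E8-cDRGcm than in control (log2 fold change -2.43 ± 0.35, adjusted p = 3.69e-07), 3.69-fold lower than in E8-cSGcm (-1.88 ± 0.38, adjusted p = 0.000207), and lower than in E15.5-mSGcm by a log2 difference of 2.30 ± 0.39 (adjusted p = 5.3e-06). It was the 1 of 9 tested members called between E8-cDRGcm and E8-cSGcm, near the background of 7.49% of all tested genes, and it was not tested when 10 reads were required in every library. Against control, E8-cSGcm gave -0.55 ± 0.27 (adjusted p = 0.122), which became -0.96 (adjusted p = 0.0476) without E8-cSGcm replicate 2, and E15.5-mSGcm gave -0.13 ± 0.28 (adjusted p = 0.761).

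OLFML1 (chr11:7485506-7511377), a secreted protein of less certain role, had 10 and 13 reads in control, 4 and 6 in E8-cSGcm, 4 and 7 in E8-cDRGcm, and 10 and 19 in the smaller E15.5-mSGcm libraries. In CPM the E15.5-mSGcm libraries (1.26 and 2.13) were above the control libraries (0.77 and 0.86), and these above the chick-medium libraries (0.30 to 0.50). None of the comparisons with control passed, with log2 fold changes of -1.10 ± 0.57 (adjusted p = 0.146), -0.98 ± 0.56 (adjusted p = 0.148) and 1.09 ± 0.46 (adjusted p = 0.0575) in E8-cSGcm, E8-cDRGcm and E15.5-mSGcm. E15.5-mSGcm was 4.58-fold above E8-cSGcm (adjusted p = 0.000827) and 4.21-fold above E8-cDRGcm (adjusted p = 0.00111). Without E15.5-mSGcm replicate 2 both differences lost their call, at log2 values of 1.74 (adjusted p = 0.0625) and 1.62 (adjusted p = 0.0738). OLFML2A (chr9:124777133-124814882), or photomedin-1, had 0 and 0 reads in control, 5 and 3 in E8-cSGcm, 4 and 6 in E8-cDRGcm, and 1 and 0 in E15.5-mSGcm. It was thus above the limit of 3 reads in both E8-cDRGcm libraries and in 1 of the 2 E8-cSGcm libraries. Against a floor of 3 reads per control library it was at least 1.68-fold higher in E8-cDRGcm. At a minimum of 1 read in total it was called in both chick media by edgeR (adjusted p = 0.0346 in E8-cSGcm and 0.00967 in E8-cDRGcm). With 0 reads in control, OLFML2A enters that fit only through its reads in conditioned media, so these calls are no independent support. DESeq2 gave it no adjusted p.

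The members did not move as 1 group between mouse and chick media. Between E15.5-mSGcm and E8-cSGcm 4 of 9 tested members were called, beside 22.3% of all tested genes, and between E15.5-mSGcm and E8-cDRGcm 5 of 9, beside 26.2%. OLFM3, OLFML1 and OLFML2B were higher and OLFM2 lower in the mouse medium in both, and OLFML3 was higher in the second. On the adjusted p alone, 6 of 9 members passed in the first, beside 49.8% of all tested genes, and 9 of 9 in the second, beside 52.6%, and 3 of 9 passed between the chick media, beside 30.2%. Genes of the fibroblast marker list were also read in this line: their summed level was 155 to 173 CPM in control, 211 to 220 CPM in E8-cSGcm, 186 to 195 CPM in E8-cDRGcm and 133 to 153 CPM in E15.5-mSGcm. In E15.5-mSGcm, of the 4 listed, DCN and LUM rose, COL1A1 fell, and COL3A1 was not called. In E8-cDRGcm DCN fell (log2 fold change -0.69 ± 0.28, adjusted p = 0.0383) and the other 3 were not called, and in E8-cSGcm none of the 4 was called. The part of these genes in the OLFML changes was not tested. Of the 8 noradrenergic markers, 2 were called lower in E8-cSGcm, 5 in E8-cDRGcm and 3 in E15.5-mSGcm, and none was called higher. Of all tested genes, 8.59%, 20.7% and 13.9% were called in either direction. DBH, called lower in both chick media, was higher in E15.5-mSGcm by 0.47 ± 0.09 (adjusted p = 3.39e-05), below the fold threshold. The part of these markers in the OLFML changes was not tested either.

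**Figure D3:**
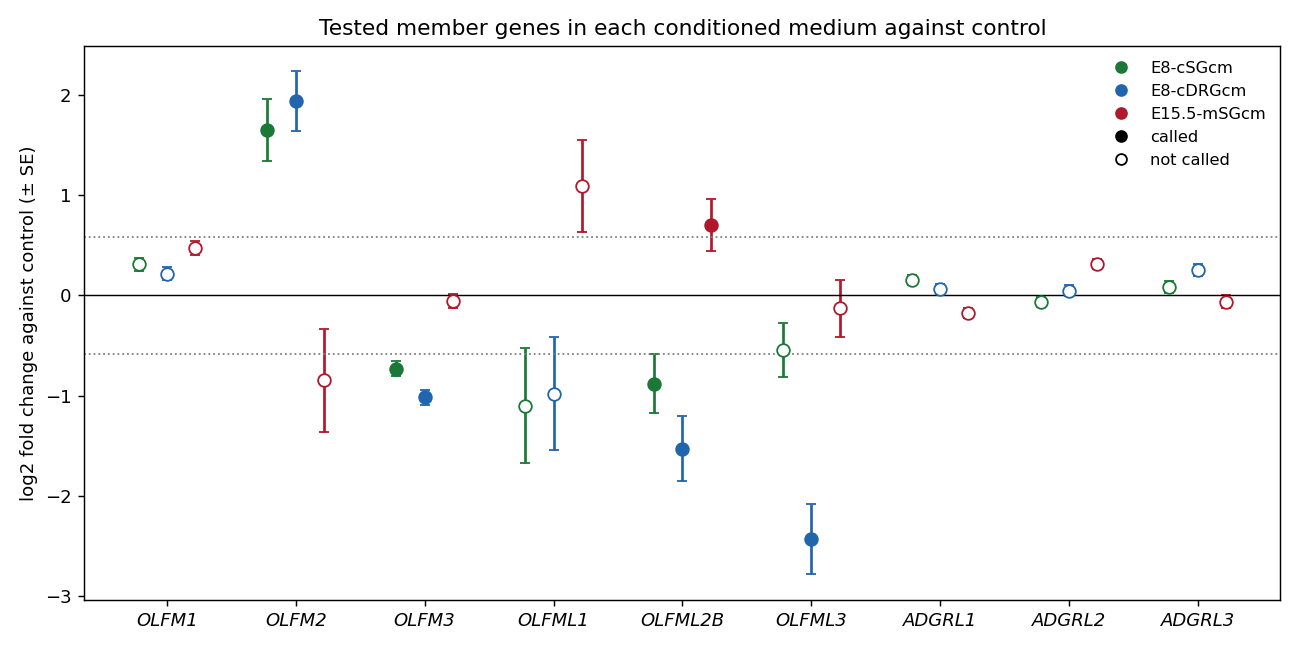
Log2 fold change against control with its standard error for the 9 tested member genes in E8-cSGcm, E8-cDRGcm and E15.5-mSGcm, with filled points for called values and dotted lines at a fold change of 1.5. OLFM2 is at 1.64 and 1.94 in the chick media, OLFML3 is lowest at -2.43 in E8-cDRGcm, and the latrophilins lie between -0.18 and 0.31.

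The latrophilins varied little. ADGRL1 led the members in control per length, with a mean of 39.5 RPKM over all annotated exons and 42.6 over the longest transcript. The order behind it depends on the length used, with OLFM3 at 14.3 and OLFM1 at 10.9 over all exons, and OLFM1 at 24.0, ADGRL2 at 21.8 and OLFM3 at 19.8 over the longest transcript. ADGRL1 (chr19:14147743-14206169), a receptor of the spider toxin alpha-latrotoxin, stood at 321 and 348 CPM in control, 385 and 364 CPM in E8-cSGcm, 347 and 333 CPM in E8-cDRGcm, and 283 and 292 CPM in E15.5-mSGcm. The E15.5-mSGcm libraries were the lowest 2 and the E8-cSGcm libraries the highest 2, and E8-cDRGcm overlapped control. The log2 fold changes against control were 0.15 ± 0.05 (adjusted p = 0.0194), 0.06 ± 0.05 (adjusted p = 0.333) and -0.18 ± 0.05 (adjusted p = 0.00639). ADGRL2 (chr1:81306132-81993932), a receptor on the dendrites of hippocampal neurons, stood at 191 and 191 CPM in control, 189 and 178 CPM in E8-cSGcm, 196 and 188 CPM in E8-cDRGcm, and 233 and 228 CPM in E15.5-mSGcm. The E15.5-mSGcm libraries stood above all others, which lay between 178 and 196 CPM, with a log2 fold change of 0.31 ± 0.05 (adjusted p = 6.91e-06), beside -0.07 ± 0.05 (adjusted p = 0.323) in E8-cSGcm and 0.05 ± 0.05 (adjusted p = 0.461) in E8-cDRGcm. ADGRL3 (chr4:61200326-62078335), a receptor of FLRT3 and teneurins, stood at 89.5 and 97.7 CPM in control, 103 and 97.0 CPM in E8-cSGcm, 108 and 108 CPM in E8-cDRGcm, and 86.9 and 87.2 CPM in E15.5-mSGcm. Its largest value against control was 0.25 ± 0.06 in E8-cDRGcm (adjusted p = 0.000613), and the groups E8-cSGcm and control overlapped.

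Several small latrophilin differences passed the adjusted p without the fold threshold. Between E15.5-mSGcm and E8-cDRGcm these were -0.24 ± 0.05 for ADGRL1 (adjusted p = 0.000186), 0.27 ± 0.05 for ADGRL2 (adjusted p = 4.15e-05) and -0.31 ± 0.06 for ADGRL3 (adjusted p = 6.63e-05). ADGRL2 thus stood higher and the other latrophilins lower in the mouse medium. The largest difference in the family was that of ADGRL2 between E15.5-mSGcm and E8-cSGcm, at 0.38 ± 0.05 (adjusted p = 1.08e-07). Per exon length, ADGRL1 made up 68.3% to 75.6% of the summed latrophilin RPKM, ADGRL2 13% to 19.8% and ADGRL3 11.4% to 13.4%. The place of ADGRL2 beside ADGRL3 depends on the length used: in control their mean RPKM was 7.91 and 6.27 over all annotated exons, and 21.8 and 6.82 over the longest transcript. ADGRL4, a related receptor of endothelium without the olfactomedin domain, had 0 reads. An antisense gene, ADGRL1-AS1, overlaps 5.57% of the ADGRL1 exon length and had 4 to 12 reads a library.

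Promoter windows were read for the members called against control, to show the letters at their start sites. RefSeq lists 21 windows for 8 of the 10 members, each with 250 bases before and 50 after a start in GRCh38.p14, and ADGRL1 and OLFML1 had no entry. Windows were searched on both strands for 5 motifs, none of which overlaps another in the member windows: CACGTG, the E-box read by MYC factors; AGATAA, read by factors of the GATA family; TAATTA, read by homeodomain factors; TGACTCA, read by AP-1; and TTGCATCA, read by C/EBP with ATF factors. Capitals mark the letters of a match, and the windows run 5′ to 3′ on the strand of the gene, which is minus for OLFM2, OLFM3 and OLFML2B and plus for OLFML3. They lie at chr19:9936466-9936765, chr1:101846939-101847238, chr1:162023820-162024119 and chr1:113979224-113979523.
OLFM2: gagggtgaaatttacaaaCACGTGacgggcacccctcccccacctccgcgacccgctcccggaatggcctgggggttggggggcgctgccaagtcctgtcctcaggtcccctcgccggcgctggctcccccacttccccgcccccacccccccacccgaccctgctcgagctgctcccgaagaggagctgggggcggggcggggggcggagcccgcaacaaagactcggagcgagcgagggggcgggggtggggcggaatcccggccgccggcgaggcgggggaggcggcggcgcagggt
OLFM3: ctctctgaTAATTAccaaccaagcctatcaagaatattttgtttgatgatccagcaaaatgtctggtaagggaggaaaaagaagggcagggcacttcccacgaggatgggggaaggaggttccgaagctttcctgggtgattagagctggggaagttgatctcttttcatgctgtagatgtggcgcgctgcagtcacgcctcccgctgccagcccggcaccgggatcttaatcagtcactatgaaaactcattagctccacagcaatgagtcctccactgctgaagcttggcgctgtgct
OLFML2B: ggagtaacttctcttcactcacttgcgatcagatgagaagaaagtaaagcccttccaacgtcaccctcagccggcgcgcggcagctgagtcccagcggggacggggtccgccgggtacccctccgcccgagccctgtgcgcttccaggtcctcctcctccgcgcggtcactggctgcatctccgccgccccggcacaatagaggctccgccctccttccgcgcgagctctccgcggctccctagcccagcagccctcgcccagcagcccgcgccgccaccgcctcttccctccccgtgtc
OLFML3: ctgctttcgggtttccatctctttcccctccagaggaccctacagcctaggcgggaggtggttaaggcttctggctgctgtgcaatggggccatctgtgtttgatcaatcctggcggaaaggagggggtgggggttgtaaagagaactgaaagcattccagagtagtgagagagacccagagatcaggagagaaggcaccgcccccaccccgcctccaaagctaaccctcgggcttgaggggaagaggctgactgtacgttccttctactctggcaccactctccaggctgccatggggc

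The OLFM2 window, the most upstream of 3 listed for that gene, held CACGTG 232 bases before the start, a motif present in 7.26% of the 35116 windows of all genes. The OLFM3 window held TAATTA 242 bases before the start, as 4.84% of all windows do. The only other match in the windows of the members was AGATAA (10.3% of all windows) in 1 of 8 windows of ADGRL2. The windows of OLFML2B and OLFML3 held none of these motifs, nor did any member window hold TGACTCA or TTGCATCA, which 4.95% and 0.866% of all windows hold. The GC content was 75.3% for OLFM2, 51.0% for OLFM3, 69.3% for OLFML2B and 58.0% for OLFML3, beside a median of 58.7% over all windows. The window listed for OLFM3 begins inside the gene, not at its 5′ end, so it does not show the start of the longest transcript, and which start IGR-N91 cells use is not known from gene counts.

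The study assembled from the literature a set of receptors and partners of OLFM proteins, of which 22 were looked up here beside the members and 18 were tested. The set names no expected direction. TENM4, RTN4R and GRIA2 also stand in the ligand, Nogo receptor and AMPA receptor lists below, so the counts of these lists share genes. In E8-cSGcm 4 partners rose and none fell, in E8-cDRGcm 3 rose and 1 fell, and in E15.5-mSGcm 3 rose and 3 fell, beside 8.59%, 20.7% and 13.9% of all tested genes called. The median log2 fold changes of the tested partners were 0.07, 0.05 and 0.05. LGALS3, the galectin-3 gene, had 61 and 42 reads in control, 103 and 144 in E8-cSGcm and 160 and 138 in E8-cDRGcm, and rose by 1.33 ± 0.20 (adjusted p = 1.71e-06) and 1.59 ± 0.19 (adjusted p = 8.76e-09) on the log2 scale in the chick media. DLG4, which encodes the postsynaptic scaffold PSD-95, had 289 and 287 reads in control and 766 and 770 in E8-cDRGcm, a log2 fold change of 1.48 ± 0.09 (adjusted p = 6.88e-17). In E8-cSGcm DLG4 rose by 0.55 ± 0.09 (adjusted p = 2.1e-05), below the fold threshold. Among the cadherins, which mediate cell contact, CDH10 rose in E8-cSGcm (1.32 ± 0.31, adjusted p = 0.0012). CDH8, on 1 to 14 reads a library, was called in both chick media at 2.22 ± 0.70 and 1.93 ± 0.73 (adjusted p = 0.0133 and 0.0263). Its reads in the chick media alone took it past the filter on low counts, so these p-values are no independent support. Both CDH8 calls were lost without control replicate 2 (log2 fold changes 1.47 and 1.17). The E8-cSGcm call was also lost without E8-cSGcm replicate 1 (1.775). The E8-cDRGcm call was also lost without E8-cDRGcm replicate 2 (1.7) and with DESeq2 (adjusted p = 0.174). CDH6 was called in E8-cSGcm (1.18 ± 0.43, adjusted p = 0.0348) and E15.5-mSGcm (1.56 ± 0.45, adjusted p = 0.00573). Both calls were lost without control replicate 1 (log2 fold changes 0.73 and 1.105). The E8-cSGcm call was also lost without E8-cSGcm replicate 2 (0.48) and with libraries thinned to the smallest total (adjusted p = 0.0812). The E15.5-mSGcm call was also lost without E15.5-mSGcm replicate 2 (1.47) and with DESeq2 (adjusted p = 0.0529).

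In E15.5-mSGcm the partner TLL1, a metalloprotease of the BMP1 family that cleaves chordin, had 174 and 239 reads against 93 and 130 in the deeper control libraries, and rose by 1.66 ± 0.14 (adjusted p = 2.41e-12). BMP1 itself was not called in any medium, and CHRD, which encodes chordin, and EDN3 had at most 3 reads. APP rose by 0.62 ± 0.05 in E15.5-mSGcm (adjusted p = 9.59e-13). That call was lost on fold change with a minimum of 1 read in total (0.56) and without E15.5-mSGcm replicate 2 (0.57). DTNB fell there by 0.61 (SE 0.22, adjusted p = 0.0275), a call lost with DESeq2 (adjusted p = 0.16) and in 3 of the fits with 1 library left out. RTN4R, which encodes the Nogo receptor bound by OLFM1, had 168 and 181 reads in control and 20 and 23 in E15.5-mSGcm, and fell by 2.25 on the log2 scale (SE 0.20, adjusted p = 1.3e-11). In the chick media it had 212 and 275 reads (E8-cSGcm) and 228 and 246 reads (E8-cDRGcm), with log2 fold changes of 0.56 ± 0.12 (adjusted p = 0.00032) and 0.51 ± 0.12 (adjusted p = 0.000502) that passed the adjusted p below the fold threshold. Of 9 genes listed for the Nogo receptor complex and its ligands, 5 were tested. Of these, 2 rose in E8-cSGcm, 3 rose in E8-cDRGcm and 4 fell in E15.5-mSGcm. Beside them, 8.59%, 20.7% and 13.9% of all tested genes were called in either direction. RTN4RL2 and NGFR were called in both directions: RTN4RL2, a Nogo receptor homologue, rose by 0.83 and 0.82 in the chick media and fell by 0.93 in the mouse medium, and NGFR, a co-receptor, rose by 0.75 and 1.56 and fell by 1.56. LINGO1 fell by 1.30 in E15.5-mSGcm, and RTN4, which encodes Nogo, rose by 0.59 in E8-cDRGcm. The RTN4 call was lost without E8-cDRGcm replicate 1 (0.57) and with libraries thinned to the smallest total (0.58). TNFRSF19, also on the list, was not tested. It had 5 and 8 reads in E15.5-mSGcm, 1 and 0 in control and 0 in both chick media. RTN4RL1 had at most 3 reads, and MAG and OMG had 0.

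Latrophilin ligands and their partners were listed as 14 genes, of which 12 were tested. In E8-cSGcm 1 rose, in E8-cDRGcm 2 rose and 3 fell, and in E15.5-mSGcm 2 rose and 3 fell, beside 8.59%, 20.7% and 13.9% of all tested genes called, and the median log2 fold changes were 0.04, -0.16 and 0.01. FLRT3, a ligand of latrophilins, had 491 and 576 reads in control and 186 and 233 in E8-cDRGcm, and fell by 1.28 on the log2 scale (SE 0.10, adjusted p = 4.16e-13). In the same medium the netrin receptor UNC5B, which binds FLRT proteins, rose by 0.66 ± 0.05 (adjusted p = 1.37e-13). UNC5C fell there by 0.62 (SE 0.05, adjusted p = 8.81e-12), a call lost on fold change without control replicate 2 (-0.58). In E8-cSGcm the log2 fold changes were -0.46 for FLRT3, 0.22 for UNC5B and -0.39 for UNC5C. These passed the adjusted p (0.000204, 0.000962 and 5.34e-07) below the fold threshold. Of the teneurins, TENM4 fell by 0.60 in E8-cDRGcm (SE 0.10, adjusted p = 4.82e-06), a call lost on fold change without control replicate 1 (-0.58) or E8-cDRGcm replicate 1 (-0.57), and by 0.86 in E15.5-mSGcm (SE 0.12, adjusted p = 1.55e-07). TENM1 had 9 and 11 reads in E15.5-mSGcm and 1 or 2 in each of the other 6 libraries (adjusted p = 0.000472 against control). Its reads in E15.5-mSGcm alone took it past the filter on low counts, so this p-value is no independent support. FLRT1 was called lower in E15.5-mSGcm (-0.68 ± 0.24, adjusted p = 0.021). It was not called without control replicate 2 (-0.64), E15.5-mSGcm replicate 1 (-0.66) or replicate 2 (-0.71). Nor was it called with DESeq2 (adjusted p = 0.146) or with libraries thinned to the smallest total (0.0563). TENM2 had at most 3 reads and UNC5D 0.

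NRXN3, a neurexin, was called in all 3 media, on 17 and 20 reads in control, 33 and 37 in E8-cSGcm, 48 and 33 in E8-cDRGcm, and 25 and 33 in E15.5-mSGcm. Its log2 fold changes were 0.99 ± 0.31 (adjusted p = 0.0128), 1.19 ± 0.30 (adjusted p = 0.00121) and 1.41 ± 0.32 (adjusted p = 0.000586). The E8-cSGcm call was lost on the adjusted p without control replicate 1 (log2 fold change 0.99), control replicate 2 (1.00) or E8-cSGcm replicate 2 (1.01). It was also lost with DESeq2 (adjusted p = 0.112) and with libraries thinned to the smallest total (0.0646). The E8-cDRGcm call was lost without E8-cDRGcm replicate 1 (log2 fold change 0.88). Of the 4 AMPA receptor subunit genes, 3 were tested and GRIA1 had at most 3 reads. GRIA4 had 1402 and 1629 reads in control, 808 and 839 in E8-cDRGcm, and 1355 and 1465 in the smaller E15.5-mSGcm libraries. It fell by 0.81 on the log2 scale in E8-cDRGcm (SE 0.06, adjusted p = 5.24e-14) and rose by 0.67 in E15.5-mSGcm (SE 0.06, adjusted p = 5.16e-12). In E8-cSGcm GRIA4 fell by 0.46 (SE 0.06, adjusted p = 9.42e-08), below the fold threshold. GRIA2 and GRIA3 were not called.

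**Figure D4:**
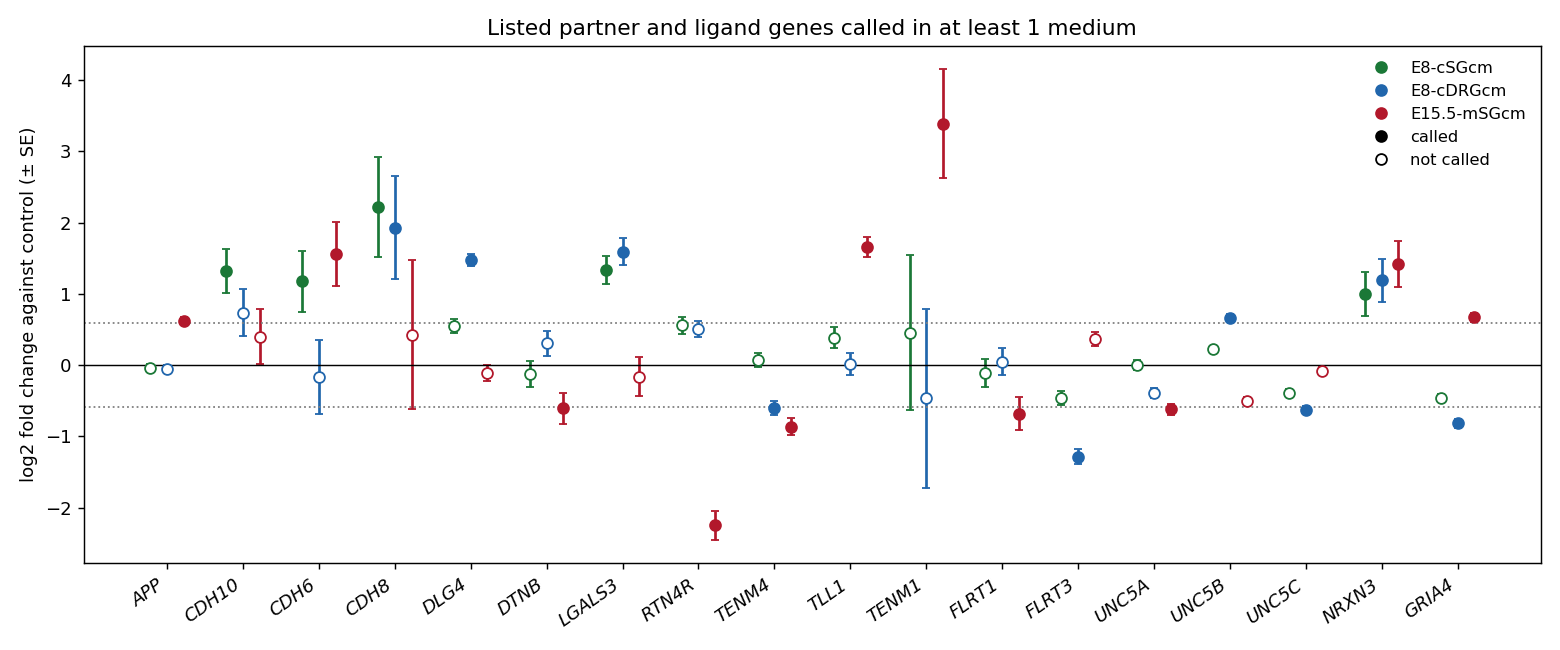
Log2 fold change against control with its standard error for the 18 genes of the partner, latrophilin ligand and AMPA receptor lists called in at least 1 medium, with filled points for called values and dotted lines at a fold change of 1.5. RTN4R is lowest at -2.25 in E15.5-mSGcm, LGALS3 and DLG4 stand at 1.59 and 1.48 in E8-cDRGcm, and the wide bar of TENM1 rests on 11 reads or fewer a library.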

How the data were processed

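Human IGR-N91 aggregates were profiled by RNA-seq in 8 libraries from 50 ng of total RNA each, prepared with a stranded kit and read as 75 bp single reads. The authors deposited raw read counts per Ensembl gene, and no normalized values were used. The submitters' processing notes name bcl2fastq 2.17.1.14, cutadapt 1.9.1, TopHat2 2.1.0 and HTSeq 0.11.3, which count reads per gene, so isoforms are not separated and reads shared by near-identical genes may be lost. The genome build is hg19 in the study's methods and hg38 in the processing notes. The identifiers fit a GRCh38 annotation, gene coordinates and promoters are RefSeq GRCh38.p14, and symbols and exon lengths come from GENCODE. Of 60676 identifiers, 58611 had a symbol, and the listed endothelial gene PECAM1 was not matched. Counts were tested in edgeR 4.0.16 (R 4.3.3; quasi-likelihood test with robust dispersion, TMM, filterByExpr; Benjamini-Hochberg over 16680 genes), all 8 libraries in 1 fit, in 6 comparisons. CPM and RPKM were computed from the library totals. The smallest libraries hold 7930765 and 8937397 reads, so 3 reads correspond to 0.378 and 0.336 CPM there. The fit was tested on simulated data. Every member is named, and from each other list the called genes, up to 4 per medium, plus those with at most 3 reads in every library. APP, DTNB and TNFRSF19 are named besides. In alternative fits, normalization, tool (DESeq2 1.42.0), filter, libraries, call rule, replicate block and each library were varied, and thinning to the smallest total was chosen after seeing the data. Some listed marker genes are not reported here. The members and lists were chosen with earlier results of these data known.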

Additional observations from a re-analysis of the deposited data

Results flagged for a closer look

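OLFML2B was called in opposite directions in the mouse and chick media, and the direct tests also passed. The log2 difference was 1.58 between E15.5-mSGcm and E8-cSGcm and 2.23 between E15.5-mSGcm and E8-cDRGcm (adjusted p = 2.5e-05 and 2.38e-07 by edgeR). Both differences kept their call in each alternative fit, whereas the calls against control in E8-cSGcm and E15.5-mSGcm did not.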

How the results depend on the processing

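Across the alternative fits, 770 values of single members kept their direction and side of the threshold, 12 lost a call, 3 gained a call and 4 reversed, and of the other listed genes 448 called values stayed called and 34 lost their call. The reversed values were OLFML1 between E8-cDRGcm and E8-cSGcm, at -0.17 with libraries thinned to the smallest total and from -0.31 to 0.45 with 1 library left out (-0.31 without E8-cDRGcm replicate 2, -0.05 without E8-cSGcm replicate 1), and OLFML3 in E15.5-mSGcm against control, at 0.11 with thinning; none of these was called. On adjusted p alone, members called were 5 in E8-cSGcm, 4 in E15.5-mSGcm, 3 between E8-cDRGcm and E8-cSGcm, and 9 between E15.5-mSGcm and E8-cDRGcm. With 10 reads required in every library, which leaves out OLFM2, OLFML1 and OLFML3, they were 2 in E8-cDRGcm, 0 between the chick media, and 2 between E15.5-mSGcm and each chick medium. Of the 13592 genes tested under that filter, 2721 were called in E8-cDRGcm and 990 between the chick media. Between E15.5-mSGcm and E8-cSGcm 2859 were called, and between E15.5-mSGcm and E8-cDRGcm 3460. In E15.5-mSGcm against control the count of 1 became 0 with DESeq2, 0 with a minimum of 1 read in total and 0 with thinning, where OLFML2B had adjusted p of 0.244, 0.0737 and 0.0527, and 2 with only the 4 libraries compared, where OLFML1 joined it (adjusted p = 0.0367); the cause was not tested. Over all genes, E15.5-mSGcm calls were 1583 of 32570 with DESeq2 and 2394 of 32570 with a minimum of 1 read. They were 2100 of 15224 with thinning and 2284 of 15411 with only the 4 libraries compared, beside 2322 of 16680 in the main fit. Thinning also ended the call of OLFML2B in E8-cSGcm (adjusted p = 0.0801). With 1 library left out in turn, the lone library of its group is assumed to vary like the others. Counts of members called in those fits are therefore not given, and calls lost or gained are named with each gene. Deviations of libraries with the same number correlated at -0.0437 to 0.042 between groups, so no shift shared by number was seen. This cannot tell whether libraries of the same number were prepared together. With a replicate block the members called stayed at 3, 4, 1, 1, 4 and 5. Beside them, 1414, 3444, 2288, 1233, 3723 and 4342 of all 16680 tested genes were called. Over all genes DESeq2 called 851 in E8-cSGcm against 1433 by edgeR, and 697 against 1249 between the chick media. Depth limits OLFM2 and the OLFML genes most.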

Other observations

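The genes whose levels ran closest to a member over the 8 libraries were listed as a description, by Pearson r of log2 CPM among 11419 genes with a mean of at least 5 CPM. The libraries form 4 groups of 2, so r rests largely on the differences between groups. For OLFM1 they were INSYN1 (r = 0.963), which encodes an inhibitory synaptic factor, JUN (0.958), an AP-1 transcription factor, MRPL34 (0.948), CHST2 (0.944) and MOSPD2 (0.937). For ADGRL1 they were AIG1 (0.989), GLIPR2 (0.983), PDK1 (0.983), CCDC40 (0.979) and XXYLT1 (0.973). For ADGRL2 they were RAD23BP1 (0.996), a pseudogene whose reads may be shared with its parent gene, ARMCX3 (0.994), DRAM1 (0.992), RALGAPA1 (0.991) and VPS26C (0.991).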
